A study of Mus musculus with 12 samples.

Results

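The β2 integrin family comprises 5 genes, namely Itgb2, which encodes the common β chain CD18, and Itgal, Itgam, Itgax and Itgad, which encode the α chains CD11a, CD11b, CD11c and CD11d. These 5 were selected by gene symbol from the 41709 genes counted in RNA-seq of MHCII+ bone marrow-derived dendritic cells (BMDCs), a rule that uses no measured value. BMDCs were obtained by culture of mouse bone marrow cells in GM-CSF for 10 days. The 4 groups of 3 libraries were CD18fl/fl BMDCs left unstimulated, CD18fl/fl BMDCs treated with LPS (100 ng/mL; 24 h according to the labels, overnight according to the methods), and CD18CD11c cKO BMDCs (CD18ΔCD11c in the labels) in the same 2 states. All mice were homozygous for a CD18 allele with loxP sites around exon 3, derived from targeted C57BL/6N embryonic stem cells, and the controls lacked Cre. In CD18CD11c cKO mice Cre is driven by the promoter of CD11c, that is, of a gene of the same family. The labels give neither the age and sex of the mice nor whether replicates came from separate animals or cultures, so p-values refer to the spread between these libraries, which may be technical.

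As background, a β2 integrin reaches the cell surface as a pair of CD18 with 1 α chain, and α chains without CD18 are retained in the cell. CD11a/CD18 (LFA-1) binds ICAM molecules and acts in leukocyte adhesion and the immunological synapse, CD11b/CD18 (Mac-1) and CD11c/CD18 are complement receptors that bind iC3b, and CD11d/CD18 is found on some macrophages. CD11c is the customary marker of mouse dendritic cells, and CD11b is abundant on myeloid cells grown in GM-CSF.

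Itgb2 (ENSMUSG00000000290) lies on the forward strand at chr10:77366086-77401542 of GRCm39, the build of the coordinates in the deposited tables. The 4 α chain genes lie on the forward strand of chromosome 7. Itgal (ENSMUSG00000030830) spans chr7:126895432-126934310, while Itgam (ENSMUSG00000030786, chr7:127661812-127717663), Itgax (ENSMUSG00000030789, chr7:127728719-127749829) and Itgad (ENSMUSG00000070369, chr7:127753548-127822988) follow each other in a cluster. The floxed sequence is shown because it is the designed difference between the genotypes. Exon 3 of the canonical Itgb2 transcript (GENCODE, chr10:77378212-77378340 with 20 bases of intron on either side) is given with exon bases in capitals and intron bases in lower case:
Itgb2 exon 3: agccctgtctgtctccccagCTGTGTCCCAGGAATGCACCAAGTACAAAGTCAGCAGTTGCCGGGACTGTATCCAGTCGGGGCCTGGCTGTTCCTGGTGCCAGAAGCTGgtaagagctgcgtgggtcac
The exon has 89 bases and makes up 3.00% of the 2970 bases of this transcript of 16 exons. Division of its length by 3 leaves a remainder of 2. Joining the coding bases of exon 2 directly to exon 4 moves the reading frame to a stop codon, in capitals, after 27 codons, compared with 770 codons in the full frame:
Itgb2 exon 2 joined to exon 4: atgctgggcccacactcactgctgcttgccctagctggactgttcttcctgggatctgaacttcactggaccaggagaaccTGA
Read counts were given per whole gene and not per exon. Therefore, transcripts with and without exon 3 were counted together, and Itgb2 values below cannot separate cells that kept the floxed exon from cells with a shortened transcript.

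The libraries held 29689149 to 34037178 total gene reads, and levels are given in CPM, that is, read numbers adjusted for the depth of each library. Before TMM factors were applied, the upper limit that a count of 0 allows (3 reads) was 0.088 to 0.101 CPM, which covers counting error only. Replicate 3 stood apart in every group. In a principal component analysis of all libraries, the second component (25.2% of the variance) was negative in all 4 libraries of replicate 3, from -97.5 to -49.0, and between -1.68 and 79.4 in all others. The dendritic cell markers fixed for this check (Flt3, Zbtb46, Cd74, 3 MHC class II genes, Ciita, Csf2ra, Ccr7 and Cd86) had reads for 10 of 10 genes in each of the 12 libraries. Their summed level was 15934 to 22964 CPM in replicate 3 and 25125 to 46410 CPM in replicates 1 and 2. Neutrophil markers, whose cells also carry CD11b and CD18, summed to 156 to 1702 CPM in unstimulated CD18fl/fl and 108 to 442 CPM in unstimulated CD18CD11c cKO BMDCs, and to 79.7 to 98.1 and 61.0 to 112 CPM, respectively, after LPS, with Ly6g, Mpo or other defining genes at 0 in 10 of 12 libraries. Macrophage and monocyte markers summed to 1407 to 2313 CPM in unstimulated CD18fl/fl, 1895 to 2141 in unstimulated CD18CD11c cKO, 964 to 1141 in LPS-treated CD18fl/fl and 579 to 877 CPM in LPS-treated CD18CD11c cKO BMDCs. The part of these differences in the values below was not tested, and in such bulk samples fewer cells of a type and less RNA per cell cannot be told apart.

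To assess the targeted gene first, Itgb2 was compared between the genotypes. In unstimulated CD18fl/fl BMDCs it amounted to 382, 420 and 379 CPM (TMM-scaled) in replicates 1, 2 and 3, and in CD18CD11c cKO BMDCs to 120, 163 and 189 CPM. All 3 cKO libraries lay below all 3 control libraries. The mean fell from 394 ± 23.0 to 158 ± 34.8 CPM (SD, n = 3 each), and in same-numbered libraries the cKO level was 31.6%, 38.9% and 49.98% of the control level. edgeR's quasi-likelihood test without a block for the replicate number gave a log2 fold change of -1.26 ± 0.23 (SE) with an adjusted p of 0.0887, which missed the threshold of 0.05. As same-numbered libraries deviated together, most clearly those of replicate 3, the number was also used as a block. This gave -1.29 ± 0.17 and an adjusted p of 0.00392 (edgeR). Without the block 0 of 12876 genes passed (0%), 2159 had an unadjusted p under 0.05 and DESeq2 called 538, while with the block 20.2% of the genes passed and 1 of 5 family members, namely Itgb2. The groups did not overlap in CPM for 24.8% of all genes.

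After LPS treatment, Itgb2 amounted to 167, 171 and 266 CPM in CD18fl/fl and to 114, 89.7 and 119 CPM in CD18CD11c cKO BMDCs. Again all cKO libraries were below all control libraries, with means of 202 ± 56.2 and 108 ± 15.6 CPM (SD, n = 3 each). The cKO level was 68.4%, 52.4% and 44.5% of the control level in same-numbered libraries. The log2 fold change was -0.93 ± 0.29 without the block (adjusted p 0.428, edgeR) and -0.91 ± 0.16 with it (adjusted p 0.0201). Here 0 of 12441 genes passed without the block (0%), 1212 had an unadjusted p under 0.05 and DESeq2 called 150. With the block 10.1% passed, again including Itgb2 and none of its α partners. In 17.6% of all genes the groups did not overlap. Scaling by library size instead of TMM put the median gene of the blocked fits at -0.46 (unstimulated) and -0.34 (LPS) on the log2 scale. With TMM it was at -0.07 and -0.09. Itgb2 in the same fits with size scaling was at -1.68 and -1.16, also below its blocked TMM values above. Across genes, log2 fold changes between unstimulated genotypes were related to exon length (Spearman's rho -0.38 over 12236 genes). With an offset for length, the blocked values of Itgb2 were -1.26 (adjusted p 0.00823) and -0.82 (adjusted p 0.032), and its own exon length of 3052 bases was at the 43.5th percentile.

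**Figure D1:**
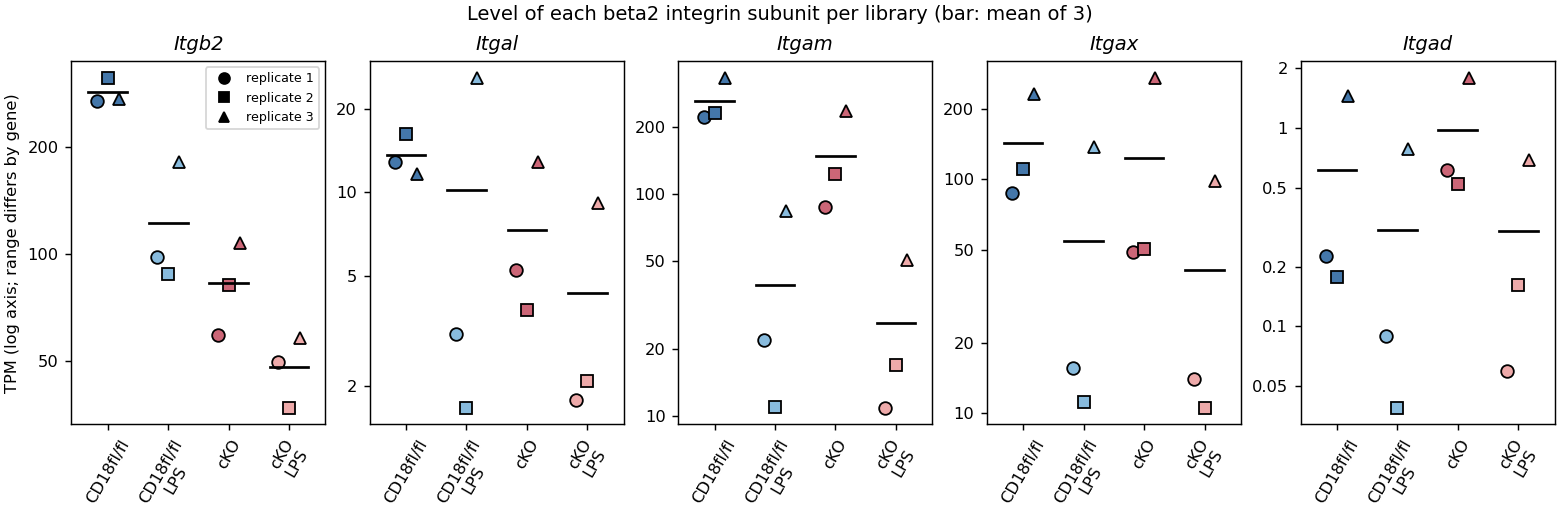
Level of each β2 integrin subunit in TPM (reads per exon length, scaled to the same sum in each library, log axis whose range differs by gene) for the 12 libraries, with symbols for replicate numbers and a bar at the mean of 3. Itgb2 lies between 59.2 and 107 TPM in unstimulated CD18CD11c cKO BMDCs, below all control libraries at 270.2 to 314 TPM, and replicate 3 is the highest of its group for Itgam, Itgax and Itgad in 4 of 4 groups. The reads include those in introns, which matters for Itgad. Its deposited TPM, from exon reads only, are 0.161, 0.064 and 0.040 in replicates 1, 2 and 3 of unstimulated CD18fl/fl BMDCs.

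The LPS response of Itgb2 was then assessed within each genotype. In CD18fl/fl BMDCs the LPS-treated libraries held 43.8%, 40.7% and 70.3% of the unstimulated level, and in CD18CD11c cKO BMDCs 94.96%, 54.9% and 62.6%. LPS-treated libraries lay below all unstimulated ones in both genotypes, while groups did not overlap for 29.5% (CD18fl/fl) and 28.1% (CD18CD11c cKO) of all genes. The log2 fold change was -0.96 ± 0.28 (adjusted p 0.103, edgeR) in CD18fl/fl and -0.60 ± 0.27 (adjusted p 0.264) in CD18CD11c cKO BMDCs, and with the block -0.99 ± 0.25 (adjusted p 0.0517) and -0.59 ± 0.21 (adjusted p 0.098). Neither passed the threshold. Without replicate 3, the value in CD18fl/fl BMDCs was -1.25 ± 0.16 (adjusted p 8.26e-05, edgeR), in a fit in which 6140 of 12924 genes passed. With all 3 replicates, 3.89% of all genes passed in CD18fl/fl and 3.99% in CD18CD11c cKO BMDCs without the block, and 12.8% and 20.2% with it. The LPS responses of the genotypes differed for Itgb2 by 0.41 ± 0.36 on the log2 scale (0.46 ± 0.29 with the block), with a 95% interval of -0.37 to 1.20. No gene passed the interaction test of edgeR without or with the block (0% and 0% of 13752 genes), while 97 and 272 genes, respectively, had an unadjusted p under 0.05 and DESeq2 called 0 and 129.

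As the deletion removes an exon, the kinds of reads on Itgb2 were compared as well. Reads across exon-exon junctions made up 73.4%, 75.7% and 72.2% of Itgb2 exon reads in unstimulated CD18fl/fl and 72.8%, 68.5% and 70.2% in CD18CD11c cKO BMDCs. The groups overlapped, with a difference of -3.29 percentage points between the means (exact permutation test, two-sided, p = 0.2). After LPS the means were 72.9 ± 1.51% and 70.6 ± 2.78% (SD, n = 3 each, exact p = 0.3). Over all genes, junction reads made up 55.7% to 63.5% of exon reads in the 12 libraries. Intron reads stayed below 2% of Itgb2 reads in every library, at 0.179% to 1.965%. With 3 libraries against 3 the smallest p of this test is 0.1.

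Itgam, which encodes CD11b, showed the largest LPS response among the α chain genes in both genotypes, without and with the block. Its level in CD18fl/fl BMDCs was 508, 500 and 751 CPM without and 60.9, 34.5 and 198 CPM with LPS. In CD18CD11c cKO BMDCs it was 287, 399 and 675 CPM without and 40.5, 67.0 and 167 CPM with LPS. In both genotypes every LPS-treated library was below every unstimulated one, and same-numbered libraries kept 11.996%, 6.90% and 26.4% of the unstimulated level in CD18fl/fl and 14.1%, 16.8% and 24.7% in CD18CD11c cKO BMDCs. The log2 fold change was -2.57 ± 0.66 (adjusted p 0.0792, edgeR) and -2.33 ± 0.61 (adjusted p 0.0797) without the block, and with it Itgam fell by 2.94 ± 0.42 (adjusted p 0.0117) and 2.52 ± 0.23 (adjusted p 0.00179). The groups did not overlap for 29.5% of all genes in CD18fl/fl and 28.1% in CD18CD11c cKO BMDCs. Without replicate 3 the values were -3.40 ± 0.25 (adjusted p 1.28e-06, edgeR) and -2.78 ± 0.32 (adjusted p 0.00526). In these fits 6140 of 12924 and 2049 of 12872 genes passed, respectively. Leaving out only the LPS-treated CD18fl/fl library of replicate 3 let 4 of 5 members pass in CD18fl/fl BMDCs without the block, namely Itgam (-3.62), Itgax (-3.02), Itgal (-2.13) and Itgb2 (-1.22). In that fit, 3268 of 13206 genes passed. Without the LPS-treated CD18CD11c cKO library of replicate 3, Itgam passed in the cKO (-3.17, adjusted p 0.0215, edgeR), as did 1033 of 13244 genes. The macrophage and monocyte marker sum was also lower in every LPS-treated than in every unstimulated library of the same genotype, and its part in the change of Itgam was not tested. The genotypes did not pass the test for Itgam, with -0.31 ± 0.35 without and -0.38 ± 0.17 with the block in unstimulated BMDCs (adjusted p 0.708 and 0.158). After LPS the difference was -0.12 ± 0.76, with a 95% interval of -1.92 to 1.68, and its sign depended on the setting.

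Between 66.9% and 73.0% of the reads on Itgam also matched another position. The gene overlaps the annotated readthrough gene Gm49368 (chr7:127661855-127727332), which was itself assigned 0 to 843 reads per library compared with 928 to 28092 for Itgam, so the split between these 2 genes is uncertain. With reads of both summed, the blocked LPS changes of Itgam were -2.93 and -2.51, and with unique reads -2.93 and -2.39, all past the threshold.

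Itgax, which encodes CD11c, amounted to 174, 210 and 453 CPM in unstimulated CD18fl/fl and 142, 143 and 680 CPM in unstimulated CD18CD11c cKO BMDCs. After LPS it amounted to 37.8, 30.7 and 284 CPM and to 46.0, 36.5 and 284 CPM, respectively. Replicate 3 was highest in each group, and its LPS-treated libraries exceeded unstimulated libraries of replicates 1 and 2, so that the groups overlapped. Within replicate numbers, LPS-treated BMDCs held 21.7%, 14.6% and 62.8% (CD18fl/fl) and 32.5%, 25.5% and 41.8% (CD18CD11c cKO) of the unstimulated level. With the block, Itgax fell by 1.89 ± 0.44 on the log2 scale (adjusted p 0.0433, edgeR) and 1.66 ± 0.22 (adjusted p 0.00406), respectively. Without it the changes were -1.23 ± 0.89 (adjusted p 0.435) and -1.40 ± 0.97 (adjusted p 0.464). Between genotypes the difference was 0.27 ± 0.70 in unstimulated BMDCs without the block, and -0.04 ± 0.23 with it (95% interval -0.56 to 0.49). After LPS, it was 0.04 ± 1.11 without and 0.15 ± 0.14 with the block (95% interval -0.19 to 0.49). None of these passed.

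**Figure D2:**
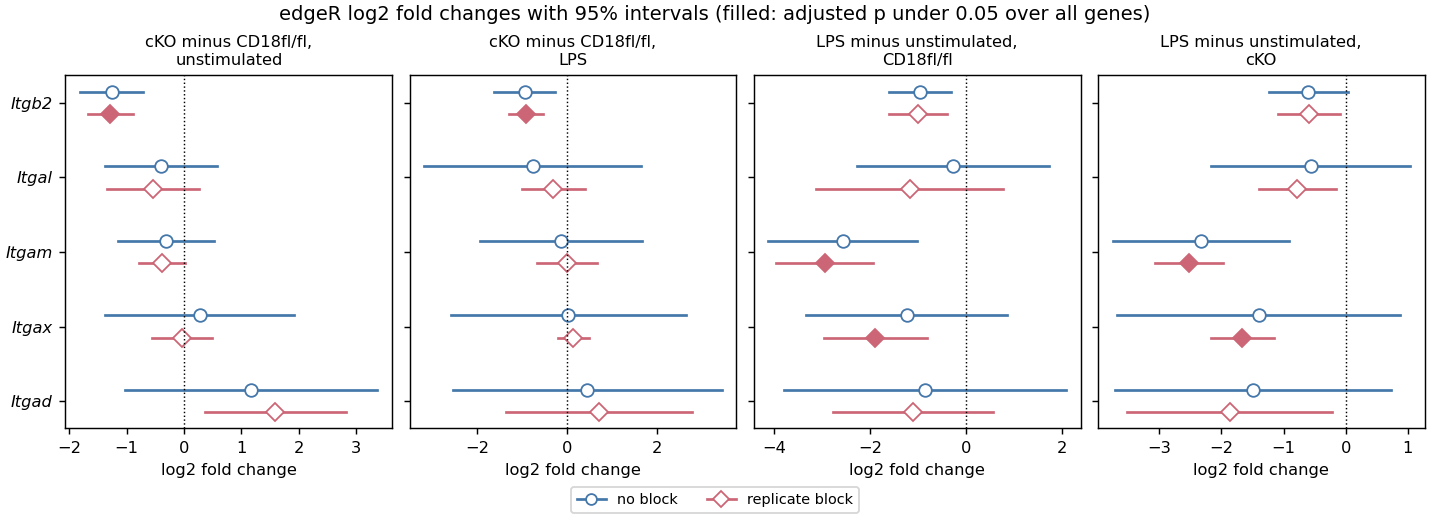
Log2 fold changes of the 5 subunits in the 4 comparisons by edgeR with 95% intervals, without (circles) and with (diamonds) the replicate block, filled where the adjusted p over all genes was under 0.05. Filled symbols are those of the blocked fits for Itgb2 between genotypes and for Itgam and Itgax between states, and all intervals of Itgax and Itgal between genotypes include 0.

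Itgal, which encodes CD11a, was expressed at lower levels of 37.9, 45.5 and 33.8 CPM in unstimulated CD18fl/fl and 22.4, 15.7 and 47.5 CPM in unstimulated CD18CD11c cKO BMDCs. LPS-treated libraries held 11.01, 6.80 and 79.2 CPM (CD18fl/fl) and 8.59, 10.6 and 39.1 CPM (CD18CD11c cKO). Replicates 1 and 2 were lower with LPS in both genotypes, whereas replicate 3 of CD18fl/fl was at 235% of its unstimulated level. Itgal passed in none of the comparisons without or with the block. The changes with LPS were -0.26 ± 0.85 (adjusted p 0.882, edgeR) and -0.57 ± 0.68 (adjusted p 0.691) without the block, and -1.17 ± 0.80 (adjusted p 0.35) and -0.78 ± 0.26 (adjusted p 0.0795) with it. In replicates 1 and 2 alone, the change in CD18fl/fl BMDCs was -2.23 ± 0.24 (adjusted p 1.97e-05, edgeR), and that between unstimulated genotypes was -1.07 ± 0.23 (adjusted p 0.0361). In these fits 6140 of 12924 and 1383 of 13068 genes passed, respectively. With all 3 replicates, the difference of Itgal between unstimulated genotypes was -0.40 ± 0.41 without and -0.54 ± 0.35 with the block (adjusted p 0.672 and 0.296, edgeR).

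Itgad, which encodes CD11d, was near the detection limit. Its total gene reads numbered 17, 14 and 111 in unstimulated CD18fl/fl, 52, 46 and 162 in unstimulated CD18CD11c cKO, 7, 3 and 67 in LPS-treated CD18fl/fl, and 5, 13 and 64 in LPS-treated CD18CD11c cKO BMDCs. Many of these lay in introns, and all of them did in LPS-treated CD18fl/fl BMDCs. Exon reads numbered 12, 5 and 3 in unstimulated CD18fl/fl and 28, 22 and 59 in unstimulated CD18CD11c cKO BMDCs, of which 7, 4 and 3 compared with 20, 22 and 54 crossed exon-exon junctions. After LPS, exon reads numbered 0, 0 and 0 in CD18fl/fl, with 3 reads as the upper limit that 0 allows in each library, and 0, 0 and 13 in CD18CD11c cKO BMDCs. Scaled to CPM of total gene reads (without TMM factors), exon reads amounted to 0.220 ± 0.159 and 1.15 ± 0.595 (SD, n = 3 each) in unstimulated BMDCs, with all cKO libraries above all controls (exact permutation test, two-sided, p = 0.1, and 0.731 after adjustment over 39 such comparisons). In CPM from total gene reads, these groups overlapped for Itgad, while 24.8% of all genes did not overlap. That share was not computed for exon reads. For total gene reads, the difference between unstimulated genotypes was 1.17 ± 0.93 (adjusted p 0.567, edgeR) without and 1.60 ± 0.53 (adjusted p 0.068) with the block. Itgad passed in none of the 4 comparisons under either fit.

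**Figure D3:**
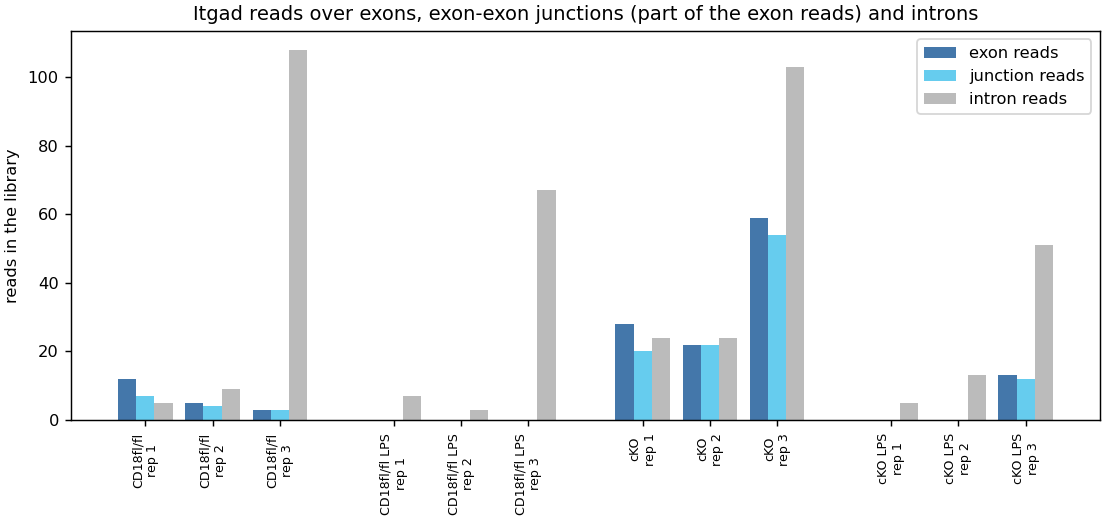
Number of Itgad reads per library over exons, over exon-exon junctions (part of the exon reads) and over introns. Exon reads number 22 to 59 in unstimulated CD18CD11c cKO BMDCs and 3 to 12 in unstimulated CD18fl/fl BMDCs, and replicate 3 holds the most intron reads in each group.

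For comparison between genes, levels were expressed per exon length as TPM. In unstimulated CD18fl/fl BMDCs, Itgb2 (286 ± 24.3 TPM) and Itgam (262 ± 62.3 TPM) overlapped, Itgax followed with 143 ± 76.9 TPM and overlapped with Itgam, and Itgal (13.6 ± 2.39 TPM) and Itgad (0.617 ± 0.720 TPM) were below all libraries of these (SD, n = 3 each). In unstimulated CD18CD11c cKO BMDCs, Itgam (148 ± 77.7 TPM) and Itgax (124 ± 128 TPM) had higher means than Itgb2 (82.8 ± 24.1 TPM), and all 3 overlapped. After LPS, the β chain had the highest mean in both genotypes, with 122.6 ± 51.5 TPM in CD18fl/fl and 48.2 ± 10.7 TPM in CD18CD11c cKO BMDCs. It was followed by Itgax (54.5 ± 71.3 and 40.9 ± 49.6 TPM), Itgam (38.7 ± 38.95 and 26.0 ± 21.2 TPM) and Itgal (10.2 ± 13.6 and 4.34 ± 4.17 TPM). These neighbours overlapped, except that Itgal lay below all values of Itgam in LPS-treated CD18CD11c cKO BMDCs. Itgad was lowest in every group. Its values include many intron reads, and its deposited TPM from exon reads were 0 in every LPS-treated CD18fl/fl library.

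Each CD18 chain pairs with 1 α chain, hence the summed α chain transcripts were set against those of Itgb2. As Itgb2 is the denominator, genotype differences of this ratio are not independent of the Itgb2 differences given above. The ratio was 1.19, 1.14 and 2.11 in unstimulated CD18fl/fl and 2.39, 2.17 and 4.86 in unstimulated CD18CD11c cKO BMDCs. All cKO libraries were above all control libraries. The log2 difference was 1.05 (1.01, 0.93 and 1.20 in same-numbered libraries), with an exact two-sided permutation p of 0.1, the smallest possible, and 0.4 after adjustment over 4 comparisons. With unique reads only, the ratio was 0.608, 0.620 and 1.21 in unstimulated CD18fl/fl and 1.35, 1.11 and 3.26 in unstimulated CD18CD11c cKO BMDCs, so that the groups overlapped (log2 difference 1.14, exact p = 0.2) and the control mean was 0.813 instead of 1.48. Unique reads leave out 66.9% to 73.0% of Itgam reads but no Itgb2 reads, which lowers the ratio by construction. After LPS the ratio over all reads was 0.416, 0.270 and 1.36 in CD18fl/fl and 0.539, 0.808 and 2.72 in CD18CD11c cKO BMDCs. It was higher in the cKO in 3 of 3 same-numbered libraries, but the groups overlapped (log2 difference 0.99, exact p = 0.4). LPS-treated BMDCs had the lower ratio in 3 of 3 same-numbered libraries of each genotype, with log2 differences of -1.41 and -1.47 (exact p = 0.3 each).

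**Figure D4:**
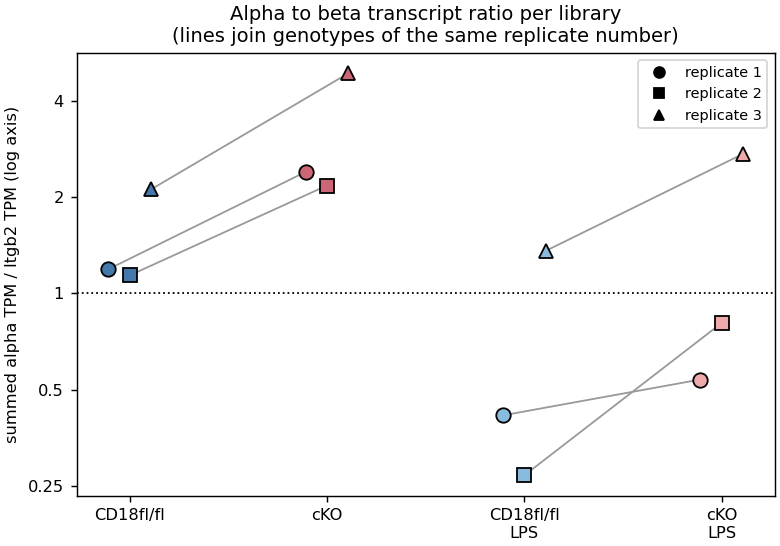
Summed TPM of the 4 α chain genes divided by the TPM of Itgb2 (log axis) for each of the 12 libraries, with lines between same-numbered libraries of the genotypes. Each of the 6 lines rises from CD18fl/fl to CD18CD11c cKO, and replicate 3 has the highest ratio in each group.

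Among the α chains, Itgam and Itgax accounted for most transcripts. In CD18fl/fl BMDCs, the Itgam share was 68.9%, 64.5% and 57.8% without LPS and 53.9%, 46.0% and 33.7% with it. All LPS-treated libraries were lower (difference -19.2 percentage points, exact p = 0.1, adjusted p 0.32 over 16 comparisons). In CD18CD11c cKO BMDCs it was 61.2%, 69.2% and 45.2% without and 40.5%, 57.0% and 31.8% with LPS, and the groups overlapped (difference -15.5 percentage points, exact p = 0.2). The Itgax share was 27.1%, 30.9% and 39.9% without and 38.3%, 46.8% and 55.4% with LPS in CD18fl/fl, and 34.6%, 28.4% and 52.0% without and 52.6%, 35.4% and 62.0% with LPS in CD18CD11c cKO BMDCs. It was thus higher with LPS in 3 of 3 same-numbered libraries of each genotype. The Itgal share was 2.02% to 4.55% in unstimulated and 7.04% to 10.5% in LPS-treated CD18fl/fl BMDCs, and 2.12% to 3.72% and 5.78% to 7.02%, respectively, in CD18CD11c cKO BMDCs (exact p = 0.1, adjusted p 0.32 each). Itgad contributed less than 0.6% in every library, with its intron reads counted. By group means, Itgam had the larger share than Itgax in both unstimulated groups and the smaller one in both LPS-treated groups. With unique reads only, the Itgax share was the largest in the unstimulated groups as well, with means of 58.7% to 69.5% in the 4 groups. This setting leaves out 66.9% to 73.0% of Itgam reads and at most 2.09% of Itgax reads at the same exon lengths. It therefore lowers the Itgam share by construction, and cannot decide the order of the 2 genes.

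**Figure D5:**
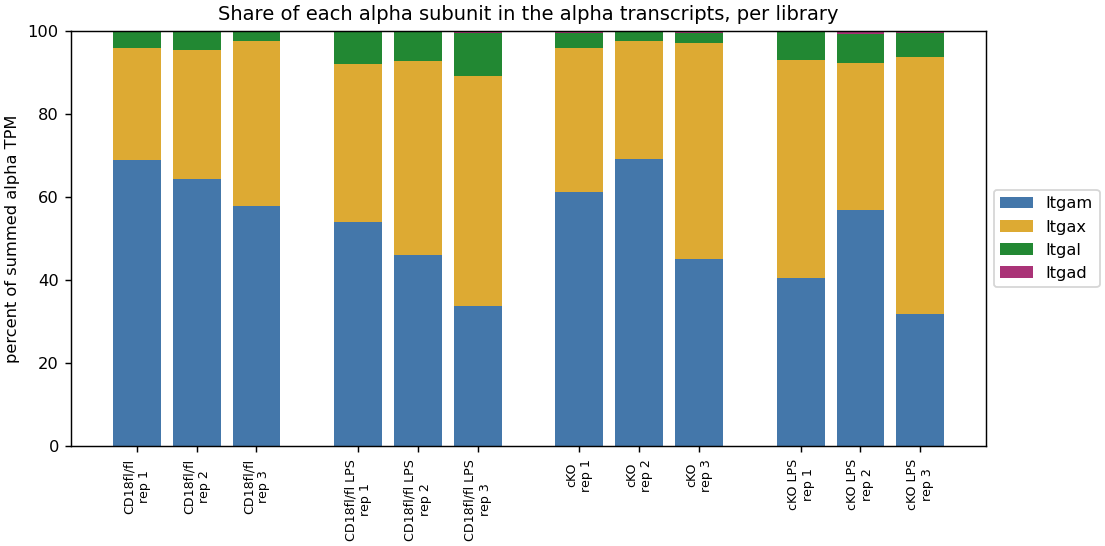
Share of each α chain gene in the summed α chain TPM (stacked bars from 0 to 100%) for the 12 libraries. Itgam makes up 57.8% to 68.9% in unstimulated and 33.7% to 53.9% in LPS-treated CD18fl/fl BMDCs, while Itgax shows the opposite order in same-numbered libraries.

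Levels of the members were also related to each other across the 12 libraries, which share groups and replicate numbers. On the log2 CPM scale, Pearson's r was 0.88 for Itgam and Itgax, 0.89 for Itgal and Itgax, and 0.77 for Itgal and Itgam. Itgb2 had lower values, namely 0.63 with Itgam, 0.59 with Itgal and 0.51 with Itgax. Among 7259 genes with a mean of at least 10 CPM, the genes most alike to Itgb2 were Ssrp1 (r = 0.97), a subunit of the histone chaperone FACT, Ppp1r12c (0.95), Dcaf7 (0.95), the splicing factor gene Sf1 (0.94) and the diacylglycerol kinase gene Dgkz (0.94). The genes closest to Itgam were Mrps5, Rasal3 and Syncrip (r = 0.98 each), those close to Itgax included Isyna1 and Trerf1 (0.98 each), and those close to Itgal included Atp2a3 and Sbf1 (0.96 each). Itgad was below the limit of 10 CPM.

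Since Itgam and Itgax moved together with LPS, the bases upstream of their canonical transcripts are shown with those of Itgb2 (200 bases each, GRCm39 genome, chr7:127661608-127661807, chr7:127728468-127728667 and chr10:77365886-77366085, all forward strand). Capitals mark GAGGAA, a core sequence bound by PU.1, or TTCCTC, its reverse complement:
Itgam upstream: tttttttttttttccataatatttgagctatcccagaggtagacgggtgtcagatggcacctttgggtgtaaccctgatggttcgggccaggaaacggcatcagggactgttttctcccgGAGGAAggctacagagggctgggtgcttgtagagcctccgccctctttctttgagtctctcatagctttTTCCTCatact
Itgax upstream: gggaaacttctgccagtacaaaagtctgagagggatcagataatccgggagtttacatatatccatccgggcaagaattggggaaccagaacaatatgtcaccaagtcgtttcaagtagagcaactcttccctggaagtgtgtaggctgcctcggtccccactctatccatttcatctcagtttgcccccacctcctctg
Itgb2 upstream: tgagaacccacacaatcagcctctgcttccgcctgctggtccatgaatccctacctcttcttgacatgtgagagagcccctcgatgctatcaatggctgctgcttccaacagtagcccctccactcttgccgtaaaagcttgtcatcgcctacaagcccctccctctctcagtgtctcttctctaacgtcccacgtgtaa
Itgam held 2 matches, 80 to 75 bases upstream on the forward and 11 to 6 bases upstream on the reverse strand, and the window of Itgal held 1. None was found in the windows of Itgax, Itgb2 and Itgad. The motif was present in 2 of 5 members (40.0%) and in 18.8% of the 21770 protein-coding genes, both strands searched.

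To place the family among related genes, lists of other integrins, β2 ligands, integrin activation and signaling genes, and transcription factors of myeloid and dendritic cells were examined in the same fits. Of 21 other integrin genes, 14 were tested between unstimulated genotypes. None passed without the block. With the block, 5 fell in CD18CD11c cKO BMDCs and 0 rose, compared with 20.2% of all genes called in either direction, while the list's median log2 fold change was -0.38 compared with -0.07 for all genes. They were Itgb3 (-1.65 ± 0.18), a partner of αv, Itgb5 (-0.93 ± 0.20), Itga4 (-0.91 ± 0.14), which pairs with β1 and β7, Itga5 (-0.64 ± 0.19) and Itga6 (-0.55 ± 0.15). With the length offset 3 passed, and Itga5 and Itga6 did not. After LPS 3 of 14 were lower in the cKO (Itgb3, Itga5 and Itgb1, -1.52 to -0.62; 10.1% of all genes), and 0 with the length offset. In response to LPS, Itgb7 and Itgb5 passed in both genotypes even without the block. Itgb7 fell from 70.7 ± 27.3 to 5.37 ± 1.75 CPM in CD18fl/fl (log2 fold change -3.71 ± 0.43, adjusted p 0.0154, edgeR) and from 48.5 ± 17.8 to 6.01 ± 2.18 CPM in CD18CD11c cKO BMDCs (-3.04 ± 0.42, adjusted p 0.0198). With the block, 1 of 16 genes tested rose and 4 fell in CD18fl/fl (12.8% of all genes called). In the cKO, 3 of 14 rose and 4 fell (20.2% of all genes called). Besides Itgb7 and Itgb5, Itga1 fell in both genotypes (-1.76 and -1.74), Itgb3 in CD18fl/fl (-1.37) and Itga6 in the cKO (-1.52). Itga5, a fibronectin receptor chain, rose in both (1.70 and 1.62), and Itgav (1.07) and Itgb8 (2.82) rose in the cKO.

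Of 11 ligand genes, 7 or 8 were tested per comparison. C3, the source of iC3b, was lower in CD18CD11c cKO BMDCs in both states with the block (-1.33 ± 0.30 and -1.15 ± 0.17). It was 1 of 8 (unstimulated) and 1 of 7 (LPS) ligand genes called, compared with 20.2% and 10.1% of all genes. Without the block, none passed between genotypes. Icam5 rose with LPS in CD18fl/fl BMDCs from 1.10 ± 0.641 to 7.00 ± 0.942 CPM (2.67 ± 0.56, adjusted p 0.0493 without the block, edgeR), where 3.89% of all genes passed. With the block it also rose in the cKO (2.98 ± 0.74), where F11r (1.19 ± 0.17) and C3 (1.17 ± 0.20) rose as well, compared with 20.2% of all genes called. Icam1, the main ligand of LFA-1, passed in none of these comparisons, with 208 ± 50.8 and 226 ± 101 CPM in CD18fl/fl and 192 ± 58.9 and 205 ± 15.8 CPM in CD18CD11c cKO BMDCs without and with LPS.

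All 22 activation and signaling genes were tested. Between unstimulated genotypes, 5 rose and 7 fell in the cKO with the block (median -0.24, all genes -0.07), while 20.2% of all genes were called. With the length offset 4 rose and 4 fell. Tyrobp (0.09, adjusted p 0.722, edgeR), Syk, Pxn, Tln1 and Ptk2b then did not pass. Higher were Itgb1bp1 (1.24 ± 0.14), which encodes ICAP-1, an inhibitor at the β1 tail, the small GTPase genes Rap1b (0.95 ± 0.17) and Rap1a (0.91 ± 0.14), Tyrobp (0.88 ± 0.17), which encodes the adaptor DAP12, and Skap2 (0.85 ± 0.14). Lower were the adaptor gene Fyb (-1.27 ± 0.17), the exchange factor gene Vav1 (-0.77 ± 0.17), Syk (-0.70 ± 0.16), Tln1 (-0.67 ± 0.19), which encodes talin, Pxn, Apbb1ip and Ptk2b (-0.61 to -0.48). After LPS 4 rose (Itgb1bp1, Skap2, Rap1b and Rap1a, 0.79 to 1.15) and 3 fell, among them Fermt3 (-0.69 ± 0.17), which encodes kindlin-3, compared with 10.1% of all genes. With the length offset, Fermt3 (-0.60, adjusted p 0.0754, edgeR) and Apbb1ip did not pass. Without the block, none of the 22 passed between genotypes. The Src family kinase gene Fgr fell with LPS in both genotypes without the block, from 48.5 ± 2.45 to 11.4 ± 3.31 CPM in CD18fl/fl (-2.08 ± 0.27, adjusted p 0.0162, edgeR) and from 40.7 ± 4.51 to 5.88 ± 3.20 CPM in CD18CD11c cKO BMDCs (-2.82 ± 0.50, adjusted p 0.0342). With the block, 0 rose and 2 fell with LPS in CD18fl/fl (12.8% of all genes called), and 2 rose and 5 fell in the cKO (20.2%). Besides Fgr, Flna fell in both genotypes (-1.65 and -1.15). Fyb (1.11) and Cyth1 (0.73) rose in the cKO, and Tyrobp (-0.93), Fermt3 (-0.84) and Lyn (-0.76) fell there.

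Of the 10 transcription factor genes, 5 were lower in unstimulated CD18CD11c cKO BMDCs with the block (20.2% of all genes called), 0 without it, and 2 (Cebpb and Cebpa) with the length offset. They were Cebpb (-1.10 ± 0.23), Cebpa (-0.88 ± 0.16), Sp1 (-0.67 ± 0.19), Runx1 (-0.56 ± 0.16) and Irf8 (-0.50 ± 0.14), while Spi1, which encodes PU.1, did not pass. After LPS, 1 was lower (Sp1, -0.68 ± 0.16), and 0 with the length offset. In response to LPS, Cebpa fell in CD18fl/fl BMDCs from 59.9 ± 15.1 to 14.1 ± 4.17 CPM without the block (-2.08 ± 0.32, adjusted p 0.0224, edgeR) and with the block also in the cKO (-2.05 ± 0.27). With the block, Irf8 (1.66 and 1.97) and Runx3 (1.45 and 1.94) rose in both genotypes, and Cebpb rose in the cKO (1.02). Spi1 fell in the cKO (-0.70 ± 0.19), a call lost with the length offset (-0.63, adjusted p 0.0612, edgeR). In the blocked fits of the LPS response, 12.8% (CD18fl/fl) and 20.2% (cKO) of all genes passed. The genotype comparisons share their libraries with the LPS comparisons, so these values are not independent of each other.

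Finally, genes next to the α chain genes were assessed, as the Cre transgene carries a promoter of this region. Of 34 genes within 250 kb of the cluster of Itgam, Itgax and Itgad, 17 were tested. Between unstimulated genotypes, Pycard (0.86 ± 0.15) and Rgs10 (0.63 ± 0.16) rose and Stx4a fell (-0.46 ± 0.14) with the block, that is, 3 of 17 compared with 20.2% of all genes, and none passed without it. With LPS, Vkorc1 fell in both genotypes with the block (-1.41 and -1.25). Of 42 genes around Itgal, 26 were tested between unstimulated genotypes, and with the block Dctpp1 rose (1.26 ± 0.15) and Srcap, Prr14 and Tbc1d10b fell (-0.79 to -0.53), again compared with 20.2% of all genes. The neighbouring genes were not examined with the length offset, and the part of exon length in their genotype differences was not tested. Spn, which encodes the leukocyte sialoglycoprotein CD43, fell with LPS in both genotypes without the block (-3.07 ± 0.39, adjusted p 0.0162, edgeR, and -3.44 ± 0.45, adjusted p 0.0182).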

How the data were processed

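According to the methods of the study, the authors isolated MHCII+ BMDCs, prepared poly(A)-selected libraries amplified by PCR without molecular identifiers, and obtained single-end reads. Mapping to GRCm39 and counting were done by the authors in CLC Genomics Workbench at its default settings. The submitters' processing notes name GRCm38, whereas gene spans in the tables match GRCm39. The authors deposited 1 table per library with raw read counts per gene, split into total, unique, exon, junction and intron reads, without normalization. The deposited tables also hold TPM and RPKM values, which the authors computed from exon reads and exon length. The deposited TPM column served as an alternative, and RPKM values were only copied.

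Total gene reads, as used in the study, were scaled by TMM factors after genes with few reads were removed (filterByExpr, minimum count 10). The quasi-likelihood test of edgeR 4.0.16 (R 4.3.3) was used, and p-values were adjusted over the whole table (Benjamini-Hochberg) with a threshold of 0.05. The standard error is the log2 fold change divided by the square root of F. Genotypes were compared within each state, states within each genotype, and their interaction on all 12 libraries. CPM use TMM factors of all 12 libraries, and TPM were computed from total gene reads and exon length. Single values of 3 libraries against 3 were compared by exact permutation tests. Deviations from group means of same-numbered libraries correlated by 0.26 to 0.72 in every pair, so values with the replicate number as a block are given. Differently numbered libraries of replicates 1 and 2 also correlated, by 0.15 to 0.33, and those of replicate 3 with replicates 1 or 2 by -0.57 to -0.32. The check thus mainly sets replicate 3 apart, and it cannot show that replicates 1 and 2 are matched by number. The pairing comes from the numbers in the labels and this check, as no source states what same-numbered libraries share.

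Members were taken by gene symbol, but the family and the gene lists were chosen with earlier results of these data known. Listed genes past the threshold were named, up to 6 per list and comparison by smallest adjusted p, as were list members introduced as background, neighbouring genes, and the genes with the highest Pearson correlation, some of which are not reported here. Where more than 6 passed, the others were named after their values were seen. Alternatives were DESeq2 1.42.0 (adjusted p values it set to NA were kept as such), RLE factors, library size scaling, no filter, unique reads, an offset for exon length (lowess, span 0.3), all libraries in 1 fit and each library left out. Replicates 1 and 2 alone, summed Itgam and Gm49368 reads, and scaling, unique reads or no filter combined with the block were added after the data were seen. The procedures were tested on simulated counts. Sequences were read from the GRCm39 genome and its GENCODE annotation. Protein sequences were not used here.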

Additional observations from a re-analysis of the deposited data

Results flagged for a closer look

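Itgad reads with more than 1 mapping position, which the comparisons of gene totals do not separate, numbered 17, 7 and 30 in the unstimulated CD18CD11c cKO libraries, 54 in all, and 0 in each of the 6 CD18fl/fl libraries. They were singled out because they exceed the level of the control libraries. In LPS-treated CD18CD11c cKO BMDCs they numbered 0, 0 and 9. They made up 15.2% to 32.7% of the Itgad reads of the unstimulated cKO libraries, and with unique reads the blocked difference between unstimulated genotypes was 1.23 ± 0.54 on the log2 scale, compared with 1.60 ± 0.53 for all reads. In these unstimulated cKO libraries, Itgad intron reads numbered 24, 24 and 103, of which 7, 17 and 75 were unique. Exon reads numbered 28, 22 and 59, of which 28, 22 and 57 were unique, so the flagged reads lay mostly in introns. The other position of the flagged reads was not determined.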

How the results depend on the processing

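Itgb2 was lower in CD18CD11c cKO BMDCs in both states, and lower with LPS in both genotypes, under each alternative tried, including each library left out. What changed was the side of the threshold. In all paragraphs the fit without a block is the reference, and the block stands for the replicate number.

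The replicate block raised the number of genes called from 0 to 2606 between unstimulated and from 0 to 1262 between LPS-treated genotypes, from 496 to 1627 for LPS in CD18fl/fl and from 506 to 2560 for LPS in CD18CD11c cKO BMDCs. Members called rose from 0 to 1, 1, 2 and 2, respectively. With the block, Itgb2 had log2 fold changes of -1.29 and -0.91 between genotypes. Signs turned for Itgax between unstimulated (-0.035) and Itgam between LPS-treated genotypes (0.0057), both far from the threshold. In replicate pair 3 alone, the Itgal share was 0.445 percentage points higher in the unstimulated cKO, against -0.75 over all. No other call was changed by the block.

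DESeq2 called 538, 150, 1795 and 1531 genes in these 4 comparisons, and 1, 0, 2 and 1 members. Itgb2 passed with -1.26 between unstimulated genotypes and -0.94 for LPS in CD18fl/fl. DESeq2 with the block called 3036, 1869, 3131 and 3377 genes, 129 for the interaction, and 2, 1, 3 and 2 members, with Itgb2 at -1.29, -0.88 and -0.97 in the first 3, Itgax at -0.035 between unstimulated and Itgam at 0.039 between LPS-treated genotypes. Here Itgad passed between unstimulated genotypes (adjusted p 0.0408). The length offset with the block called 1547, 888, 1802 and 2566 genes and 1, 1, 2 and 2 members, with Itgb2 at -1.26 and -0.82 between genotypes and Itgam at 0.19 between LPS-treated genotypes. One fit of all 12 libraries called 19, 45, 1068 and 983 genes, with 2 members and Itgb2 at -0.97 for LPS in CD18fl/fl. Replicates 1 and 2 alone gave 1383, 523, 6140 and 2049 genes and 2, 0, 4 and 2 members, with Itgb2 at -1.44 between unstimulated genotypes and -1.25 for LPS in CD18fl/fl, Itgax at -0.38 between unstimulated genotypes, and Itgal at 0.075 and Itgam at 0.14 between LPS-treated genotypes.

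Without the filter on low counts, 1 gene was called between LPS-treated genotypes. For LPS, 691 genes were called in CD18fl/fl and 805 in the cKO, with 1 member in each genotype. With the block as well, 3425, 2103, 2339 and 3090 genes were called, 1 for the interaction, and 2, 1, 3 and 3 members, with Itgb2 at -1.30, -0.93 and -0.99 in the first 3 and Itgax at -0.048 between unstimulated genotypes. Library size scaling alone moved the split from 263 higher and 233 lower to 143 and 304 genes for LPS in CD18fl/fl and from 283 and 223 to 186 and 300 in the cKO, and turned Itgax to -0.070 and -0.25 between genotypes. With the block it called 4583, 2642, 1621 and 2748 genes and 2, 1, 3 and 4 members, with Itgb2 at -1.68, -1.16, -1.32 and -0.80 and Itgax at -0.43 and -0.10 between genotypes, and moved the split from 1555 higher and 1051 lower to 701 higher and 3882 lower genes between unstimulated genotypes, from 869 and 393 to 590 and 2052 between LPS-treated genotypes, and from 807 and 820 to 476 and 1145 for LPS in CD18fl/fl and from 1300 and 1260 to 884 and 1864 in the cKO. Unique reads turned Itgam to 0.059 between LPS-treated genotypes. With the block they called 2622, 1367, 1680 and 2601 genes and 1, 1, 3 and 2 members, with Itgb2 at -1.28, -0.91 and -0.99 in the first 3, Itgax at -0.020 between unstimulated and Itgam at 0.15 between LPS-treated genotypes. Summed Itgam and Gm49368 reads with the block called 2606, 1261, 1632 and 2561 genes and 1, 1, 2 and 2 members, with Itgam at 0.0040 between LPS-treated genotypes. The cause of these differences was not tested.

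With 1 library left out at a time, 0 to 3268 genes were called for LPS in CD18fl/fl (0 without replicate 1 or 2 of either state, 506 without unstimulated replicate 3, 3268 without LPS-treated replicate 3), 0 to 1033 for LPS in the cKO (0, 4 and 357 without unstimulated replicates 1, 2 and 3, and 26, 2 and 1033 without LPS-treated replicates 1, 2 and 3) and 0 to 1 between LPS-treated genotypes (1 without LPS-treated replicate 2 of CD18fl/fl). Members called ranged from 0 to 4 and from 0 to 1 for LPS in CD18fl/fl and the cKO. For LPS in CD18fl/fl, log2 fold changes ranged from -1.22 to -0.84 for Itgb2, -2.13 to 0.22 for Itgal and -2.86 to 0.74 for Itgad, and in the cKO from -1.66 to 0.029 for Itgal. Between genotypes, Itgax ranged from -0.90 to 0.78 (unstimulated) and -1.58 to 1.83 (LPS), and with LPS Itgal from -1.81 to 1.11, Itgam from -0.92 to 0.92, Itgad from -0.86 to 2.46, the Itgb2 intron percent difference from -0.53 to 0.28 and that of Itgad exon reads (in CPM of total gene reads) from 0 to 0.197. The interaction of Itgam ranged from -0.50 to 1.22. In these fits a group with 2 libraries is assumed to vary like the other. With 3 libraries a group, differences of Itgal, Itgax and Itgad between genotypes below their intervals were not detectable, and for Itgad counts of 0 to 59 exon reads limit precision.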
